A study of Mus musculus with 36 samples.

Results

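Nos2, Gch1, Slc7a2, Ass1, Asl, Arg1, Arg2 and Odc1 encode the inducible nitric oxide (NO) synthase of microglia and the proteins that supply, recycle or compete for its substrate and cofactor. The 8 genes were taken by symbol, under a rule that uses no measured value, and each matched 1 of the 19879 genes listed over all tables of the series. Their RNA was measured by sequencing in the immortalised wild-type mouse microglial line BV-2, with 12 groups of 3 libraries. Cells received a vehicle alone (DMSO or EtOH), LPS alone, or LPS together with DMF, MMF or CBD, and were harvested after 4 h or 24 h. LPS, the bacterial lipopolysaccharide that activates microglia, was given at 600 ng/mL. DMF (dimethyl fumarate) and MMF (monomethyl fumarate, its monoester) were given at 30 µM from DMSO, and CBD (cannabidiol) at 6 µM from EtOH. All groups shared a switch to low serum just before treatment and a vehicle content of 0.2%. Which vehicle the cells with LPS alone received was not given in the sources used here. The libraries of a treatment came from 3 independent experiments with the same line. Replicate numbers in the titles run from 1 to 3 in the 4 LPS treatments and 4 to 6 in the vehicle groups. The titles do not say whether a number marks an experiment. In such bulk samples, fewer cells that express a gene and less RNA per cell cannot be told apart.

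NO synthase oxidises arginine to NO and citrulline and needs tetrahydrobiopterin (BH4) as a cofactor. Macrophages and microglia make little of the inducible enzyme at rest and induce its gene strongly after bacterial stimuli. Citrulline can be turned back into arginine, while arginases divert arginine to ornithine, from which polyamines are made.

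Nos2 (ENSMUSG00000020826) lies at chr11:78811613-78851080 on the forward strand of GRCm39 and encodes the inducible synthase itself. Gch1 (ENSMUSG00000037580, chr14:47391352-47426870, reverse strand) encodes GTP cyclohydrolase 1, the first enzyme of BH4 synthesis. Slc7a2 (ENSMUSG00000031596, chr8:41315433-41375345, forward strand) encodes a carrier for arginine and other cationic amino acids. Ass1 (ENSMUSG00000076441, chr2:31360219-31410684, forward strand) and Asl (ENSMUSG00000025533, chr5:130040099-130058088, reverse strand) encode argininosuccinate synthase and lyase, which together rebuild arginine from citrulline. Arg1 (ENSMUSG00000019987, chr10:24791119-24803382, reverse strand) and Arg2 (ENSMUSG00000021125, chr12:79177551-79203075, forward strand) encode the cytosolic and the mitochondrial arginase. Odc1 (ENSMUSG00000011179, chr12:17594795-17601506, forward strand) encodes ornithine decarboxylase, the first enzyme of polyamine synthesis. All are annotated as protein coding, and all values are per gene over its exons.

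For 3 of the 8 genes, Gch1, Ass1 and Odc1, RefSeq gave the 250 bases before the gene's start, on build GRCm38.p6. These genes are shown because the promoter set used held an entry for them and for no other member, Nos2 included. Each had higher levels with LPS in at least 1 comparison below, at different times. Capitals mark letters found by a search for 7 motifs on both strands.
Gch1, chr14:47189414-47189663, reverse strand: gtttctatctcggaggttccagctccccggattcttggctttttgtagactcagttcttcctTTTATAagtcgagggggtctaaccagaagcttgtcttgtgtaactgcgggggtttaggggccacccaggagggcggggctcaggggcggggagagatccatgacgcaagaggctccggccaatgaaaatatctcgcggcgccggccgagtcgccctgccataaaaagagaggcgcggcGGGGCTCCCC
Ass1, chr2:31470020-31470269, forward strand: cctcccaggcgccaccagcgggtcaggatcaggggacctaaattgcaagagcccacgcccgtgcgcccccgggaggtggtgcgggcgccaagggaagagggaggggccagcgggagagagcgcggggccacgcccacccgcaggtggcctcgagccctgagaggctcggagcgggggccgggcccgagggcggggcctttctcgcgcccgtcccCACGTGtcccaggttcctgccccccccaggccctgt
Odc1, chr12:17544623-17544872, forward strand: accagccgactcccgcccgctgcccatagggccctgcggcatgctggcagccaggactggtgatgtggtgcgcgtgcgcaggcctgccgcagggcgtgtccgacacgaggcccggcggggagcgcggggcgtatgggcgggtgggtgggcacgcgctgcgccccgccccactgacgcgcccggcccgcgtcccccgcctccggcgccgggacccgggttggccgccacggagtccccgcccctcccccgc
All 3 were rich in G and C, at 59.2% in Gch1, 75.6% in Ass1 and 80.0% in Odc1, beside a median of 52.4% over the 32851 promoters of the table. The NF-kB consensus matched once in Gch1, in the last 10 bases before the start, and 5.0% of all promoters hold it. Gch1 also holds TATAAA on the reverse strand, as do 12.4% of all promoters on either strand, and Ass1 holds the E-box CACGTG, as do 6.02%. The other searches were for TTCNNNGAA (7.02% of all promoters), TGACNNNGC (10.2%), TTGCNNAA (9.56%) and TGACGTCA (1.55%). None of these was in the 3 windows, and Odc1 held none of the 7 motifs. The matches did not overlap each other.

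The libraries held 14110424 to 26676607 reads in genes. All 9 markers of microglia and macrophages reached a group mean of 50 or more normalised counts, and their sum ranged from 21719 to 45545 per library. Summed levels per library were 5.66 to 27.2 for 4 astrocyte markers, 66.0 to 339 for 4 neuronal, 726 to 1579 for 4 oligodendrocyte, 0 to 8.08 for 3 fibroblast and 0 to 7.46 for 3 T cell markers. The defining markers Snap25, Syt1 and Aqp4 were not listed, and Mog, Olig2 and Rbfox3 were below 10. Of the oligodendrocyte markers Mbp had group means of 748 to 1386, and of the neuronal markers Map2 had 101 to 275.

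Levels below are normalised read counts, which are reads divided by a size factor computed over all 36 libraries. Compared per kb of exon, the group means of the 8 genes spanned more than 3 orders of magnitude. With DMSO at 4 h, Odc1 stood at 2180 ± 171 per kb (SD, n = 3), Ass1 at 699 ± 66.4, Gch1 at 224 ± 12.03 and Asl at 70.0 ± 7.74. Nos2 stood at 26.9 ± 28.4 per kb in the same group, Arg1 at 9.58 ± 4.78, Arg2 at 1.42 ± 1.38 and Slc7a2 at 0.414 ± 0.174. With LPS at 24 h, Nos2 was second to Odc1, at 1606 ± 465 per kb against 2801 ± 746. The arginases and the carrier Slc7a2 were the lowest of the 8 genes in both groups, with 86 Arg1 reads, 12 Slc7a2 reads and 6 Arg2 reads over the 3 DMSO libraries at 4 h.

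Nos2 varied most between groups. At 4 h its normalised count was 21.1, 261 and 75.8 in the DMSO libraries and 12.1, 132 and 11.5 in the EtOH libraries. With LPS alone it was 1070, 4488 and 1463, so no LPS library overlapped a vehicle library. With LPS and DMF at 4 h it was 59.0, 561 and 75.7, a range that overlapped DMSO and lay wholly below LPS alone. It was 1241, 3326 and 2116 with LPS and MMF, and 1458, 4514 and 2142 with LPS and CBD, both of which overlapped LPS alone.

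At 24 h Nos2 was 483, 1211 and 801 with DMSO and 668, 864 and 861 with EtOH. It was 5472, 9443 and 6474 with LPS alone, 3639, 7538 and 4729 with LPS and DMF, and 4793, 9479 and 4798 with LPS and MMF. These 3 groups overlapped each other and lay above both vehicles. With LPS and CBD at 24 h Nos2 was 3128, 5037 and 1549, below every library with LPS alone. The library numbered 2 or 5 was the highest in 12 of 12 groups, and within a group the highest library was 1.29 to 12.4 times the lowest. In the order of the 12 group means, from 7130 with LPS at 24 h down to 51.9 with EtOH at 4 h, 2 of 11 neighbouring pairs did not overlap.

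**Figure D1:**
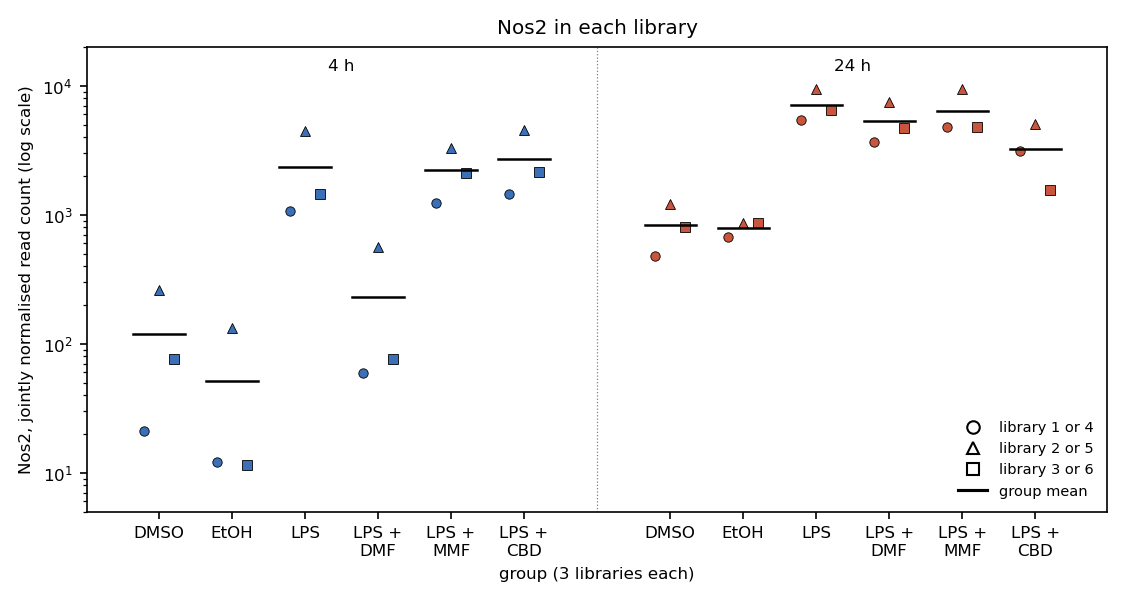
Nos2 normalised read count in each library (log axis) by group, with 4 h on the left and 24 h on the right, 3 libraries a group and the group mean as a bar. At 4 h the libraries with LPS and DMF (59.0 to 561) lie below those with LPS alone (1070 to 4488), and the library numbered 2 or 5 (triangle) is the highest in every group.

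With LPS, Nos2 and Odc1 were higher at 4 h, and Nos2 and Ass1 were higher and Arg1 lower at 24 h. Differences were tested within the 6 libraries of each pair by limma on log2(normalised count + 1), and genes with an adjusted p under 0.05 were called. Slc7a2 and Arg2 were too low to be tested in any comparison with a vehicle, which left 6 of the 8 genes. LPS and DMSO differed in 2 of 6 at 4 h, both higher with LPS (14.1% of all genes were called), and in 4 of 6 at 24 h, 3 higher and 1 lower (22.7% of all genes). LPS and EtOH differed in 3 of 6 at 4 h, all higher (10.2% of all genes), and in 3 of 6 at 24 h, 2 higher and 1 lower (20.5% of all genes). Arg1, the 1 lower gene, reached the minimum for a test against DMSO only through the DMSO libraries. Both sets of comparisons use the same LPS libraries. The LPS and vehicle libraries share no replicate number, and if these mark experiments, LPS and experiment cannot be told apart.

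Nos2 rose by 4.64 on the log2 scale against DMSO at 4 h (SE 0.82, adjusted p = 0.00765), a 25.0-fold difference with a 95% interval from 6.82 to 91.5. This log2 value was 3.74 without DMSO library 4, 5.54 without DMSO library 5 and 4.03 without LPS library 2, and called each time. Against EtOH at 4 h the log2 difference was 6.10 (SE 0.90, adjusted p = 0.00472), and it was 7.23 without EtOH library 5 and 5.48 without LPS library 2. At 24 h it was 3.17 against DMSO (SE 0.28, adjusted p = 2.15e-05) and 3.14 against EtOH (SE 0.17, adjusted p = 5.83e-07). The vehicle cells themselves had more Nos2 at 24 h than at 4 h, by 3.32 with DMSO (adjusted p = 0.00196) and 4.82 with EtOH (adjusted p = 0.000253). The LPS effect at 24 h minus that at 4 h did not pass the test, at -1.49 against DMSO (adjusted p = 0.364) and -2.97 against EtOH (adjusted p = 0.0788). Without EtOH library 5 at 4 h the latter was called (adjusted p = 0.000988).

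For Gch1, the cofactor enzyme, the 3 libraries with LPS at 4 h had counts of 1648, 2015 and 1819. The DMSO libraries had 1452, 1448 and 1590, and the EtOH libraries 1494, 1407 and 1417. LPS lay above both vehicles without overlap, but by a small amount. The log2 difference was 0.34 against EtOH (SE 0.08, adjusted p = 0.0337) and 0.28 against DMSO (adjusted p = 0.0686, or 0.0394 without LPS library 1 and 0.00825 in 1 fit over all 36 libraries). The EtOH call was lost without EtOH library 4, 5 or 6 or LPS library 3 (adjusted p 0.0854 to 0.126). At 24 h Gch1 differed from DMSO by 0.04 (95% interval -0.15 to 0.23) and from EtOH by 0.05 (-0.12 to 0.22), with overlapping groups of 2200 to 2528 with LPS, 2050 to 2462 with DMSO and 2192 to 2406 with EtOH. Gch1 rose from 4 h to 24 h in all 6 treatments, by 0.36 to 0.64.

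Ass1, the citrulline-using enzyme, separated from the vehicles at 24 h. Its counts were then 2840, 3014 and 3362 with LPS, against 1383, 1496 and 1532 with DMSO and 1597, 1597 and 1476 with EtOH. The LPS libraries did not overlap either vehicle. The log2 differences were 1.07 (SE 0.08, adjusted p = 7.03e-06) and 0.99 (SE 0.08, adjusted p = 9.68e-06). At 4 h they were 0.29 against DMSO (adjusted p = 0.0534, 0.034 by DESeq2, 0.0491 in 1 fit over all 36 libraries and 0.0357 without DMSO library 4) and 0.25 against EtOH (adjusted p = 0.177). Ass1 fell from 4 h to 24 h in both vehicles, by 0.85 with DMSO (adjusted p = 2.94e-05) and 0.81 with EtOH (adjusted p = 7.52e-05), while with LPS alone the change was -0.07 (adjusted p = 0.577). The LPS effect was larger at 24 h than at 4 h, by 0.77 against DMSO (adjusted p = 0.00237) and 0.73 against EtOH (adjusted p = 0.00559). In this test of the times, 2 of 6 members passed against either vehicle, Ass1 and Arg1, beside 9.46% of all genes against DMSO and 9% against EtOH.

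Asl, the next enzyme of the cycle, ranged from 507 to 611 with LPS at 4 h and from 742 to 784 at 24 h, in both cases overlapping the vehicles. It passed the test in none of the 4 comparisons of LPS with a vehicle by limma, edgeR or DESeq2, with log2 differences from -0.02 to 0.22. Its level rose from 4 h to 24 h in all 6 treatments, by 0.32 to 0.78.

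Arg1, which competes with NO synthase for arginine, was low throughout and fell with LPS only at the later time. At 24 h its counts were 37.9, 61.3 and 55.4 with DMSO, 36.5, 62.3 and 47.7 with EtOH, and 5.52, 9.63 and 5.45 with LPS. No LPS library overlapped a vehicle library, and the highest LPS library was well below the lowest vehicle library. The log2 difference was -2.73 against DMSO (SE 0.33, adjusted p = 0.000173) and -2.68 against EtOH (SE 0.34, adjusted p = 0.000205). Against DMSO, Arg1 reached the minimum of 10 in 3 libraries through the DMSO group alone, so without a DMSO library it could not be tested. At 4 h LPS differed from DMSO by 0.06 (95% interval -0.86 to 0.99) and from EtOH by -0.18 (-0.81 to 0.45), and the ranges of 26.4 to 31.6 with LPS and 13.04 to 45.4 in the vehicles overlapped. The LPS effect differed between the times, by -2.82 against DMSO (adjusted p = 0.00609) and -2.49 against EtOH (adjusted p = 0.00294). Arg1 fell from 4 h to 24 h in the 4 treatments with LPS, by 1.75 to 2.18. With LPS alone, with MMF and with CBD it could be tested only through the 4 h libraries. The changes with DMSO (0.83, adjusted p = 0.0943) and EtOH (0.51, adjusted p = 0.155) did not pass the test. Without library 5 at 4 h these were called, at adjusted p = 0.0281 and 0.0485.

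Odc1, the polyamine enzyme, was the most abundant of the 8 genes. At 4 h its counts were 25131, 23974 and 23887 with LPS, 13164, 11277 and 12599 with DMSO, and 13361, 11933 and 12524 with EtOH. All LPS libraries lay far above both vehicles, at log2 differences of 0.98 (SE 0.08, adjusted p = 0.000172) and 0.95 (SE 0.07, adjusted p = 0.000159). At 24 h the LPS libraries spread more widely, at 20074, 11626 and 15888, against 8848 to 11572 with DMSO and 9860 to 13658 with EtOH. The log2 difference was then 0.59 against DMSO (SE 0.17, adjusted p = 0.0259) and 0.36 against EtOH (adjusted p = 0.17). The DMSO call was lost by DESeq2 (adjusted p = 0.0584) and without LPS library 1 (0.0621), LPS library 3 (0.0945) or DMSO library 5 (0.116), and the EtOH comparison was called without LPS library 2 (0.0128). Odc1 fell from 4 h to 24 h in the 4 treatments with LPS, by 0.54 to 0.84. With DMSO it also fell, by 0.27 (adjusted p = 0.0462 by limma), a call lost in several alternatives given below. With EtOH its level at 24 h was 94.7% of that at 4 h and was not called.

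**Figure D2:**
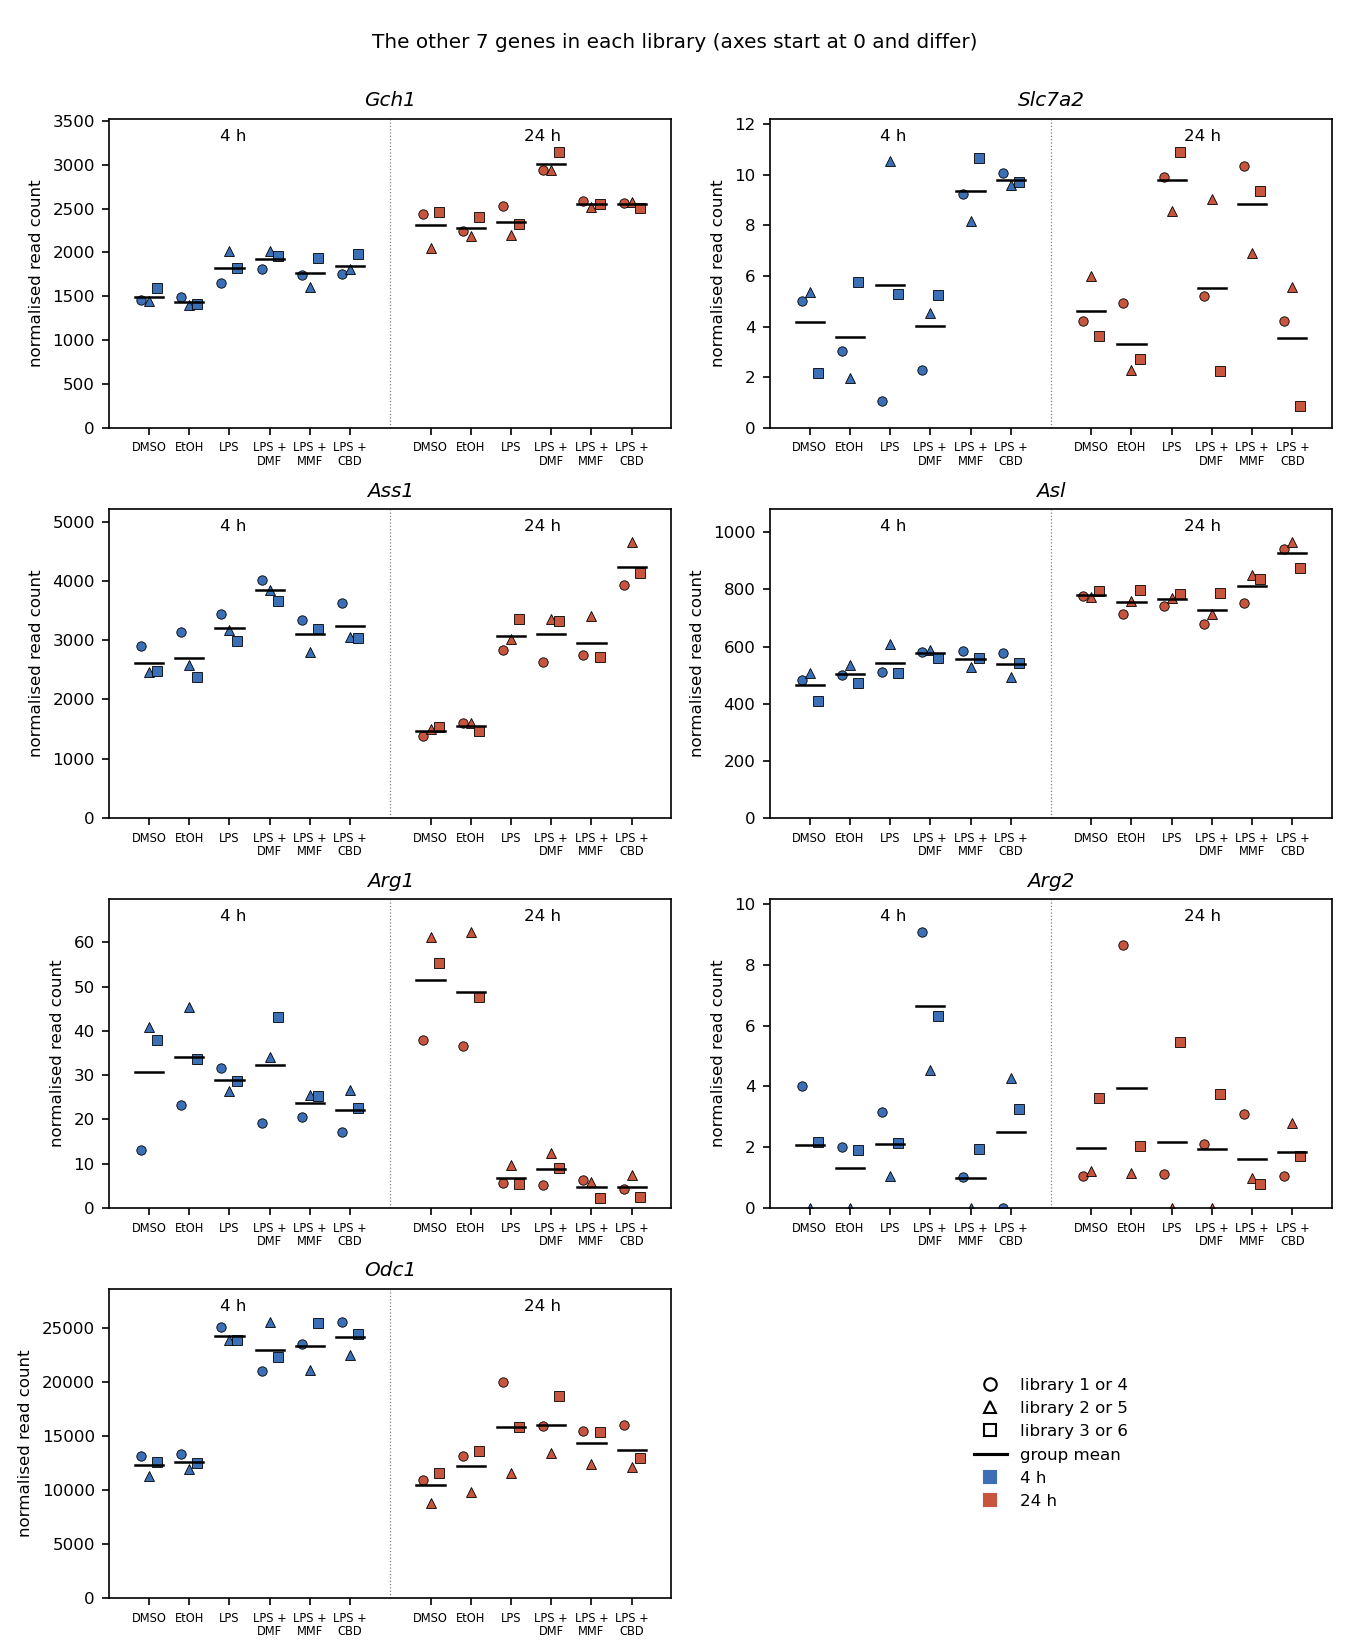
Normalised read counts (linear axes from 0) of the other 7 genes in each library by group, 4 h in blue and 24 h in red, 3 libraries a group, bars for group means. At 24 h Arg1 is at 2.34 to 12.4 in the libraries with LPS and 36.5 to 62.3 in the vehicles, and Ass1 at 2632 to 4658 and 1383 to 1597. Slc7a2 and Arg2 reach at most 10.9 and 9.07.

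Slc7a2 and Arg2 gave too few reads for most tests. Slc7a2 was 9.93, 8.56 and 10.9 with LPS at 24 h, against 4.21, 6.01 and 3.61 with DMSO and 4.95, 2.31 and 2.73 with EtOH. The LPS libraries lay above both vehicles, on 31 reads against 12 and 14, with no test. With LPS and CBD at 24 h it was 4.22, 5.57 and 0.851, below LPS alone, and at 4 h it was 10.1, 9.59 and 9.72, inside the LPS range of 1.05 to 10.5. In the fit over 12 libraries the CBD effect at 24 h minus that at 4 h was -2.45 on the log2 scale (SE 0.85, adjusted p = 0.0417), or -1.41 with a pseudocount of 5. In that fit 32% of all genes were called. Only LPS library 2 and CBD library 1 at 4 h and LPS library 3 at 24 h reached the minimum of 10. None of these was in the low group with LPS and CBD at 24 h, and without any 1 of them Slc7a2 could not be tested. The call was lost by DESeq2 (adjusted p = 0.062), with no filter on low values (0.0567) and without LPS library 1 or 3 at 4 h, LPS library 1 or 2 at 24 h, CBD library 2 or 3 at 4 h or CBD library 3 at 24 h (0.0582 to 0.102). Arg2 had 3 to 18 reads per group. Its highest group was LPS with DMF at 4 h, at 9.07, 4.55 and 6.31, against 3.16, 1.05 and 2.12 with LPS alone. Its span overlaps Vti1b on the other strand, which averaged 966, and whether the counting used strand was not given in the sources used here.

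In the test without pairing, DMF lowered Nos2 at 4 h and raised Gch1 at 24 h. Of the members tested, 1 of 6 passed the test against LPS alone at 4 h (11.1% of all genes) and 1 of 5 at 24 h (25.1% of all genes), where Arg1 was also too low to test. Nos2 at 4 h was lower with LPS and DMF than with LPS alone by 3.81 on the log2 scale (SE 0.80, adjusted p = 0.0159), which leaves 7.15% of the LPS level. The same-numbered differences were -4.16, -2.998 and -4.25. The call was lost without DMF library 1 (-3.21, adjusted p = 0.0596) or 3 (-3.38, adjusted p = 0.0746), and the value was -4.83 without DMF library 2 and -3.19 without LPS library 2. Against DMSO, Nos2 with LPS and DMF differed at 4 h by 0.84, with a 95% interval from -1.28 to 2.96 (adjusted p = 0.549).

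At 24 h the difference in Nos2 between LPS with DMF and LPS alone was -0.46 (95% interval -0.995 to 0.08, adjusted p = 0.191). It was -0.59, -0.32 and -0.45 between same-numbered libraries, all in 1 direction, and with the replicate number as a block it was called (adjusted p = 0.00032), as it was without DMF library 2 (0.028). The groups overlapped. The DMF effect at 24 h minus that at 4 h was 3.35 (SE 0.94, adjusted p = 0.025), with 16.3% of all genes called in that test. DESeq2 gave 0.0987 for it, and the call was lost without DMF library 1 or 3 at 4 h, DMF library 2 or 3 at 24 h or LPS library 1 or 3 at 24 h (0.0521 to 0.0661). Without DMF library 2 at 4 h the value was 4.36, and without LPS library 2 at 4 h 2.73. Against DMSO at 24 h, Nos2 with LPS and DMF was higher by 2.72 (adjusted p = 7.87e-05).

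Gch1 with LPS and DMF at 24 h was 2943, 2938 and 3144, above all libraries with LPS alone at 2528, 2200 and 2319. The log2 difference was 0.36 (SE 0.08, adjusted p = 0.00814), and without DMF library 3 it was 0.33 (adjusted p = 0.053). At 4 h the difference was 0.08 (adjusted p = 0.692). Ass1 at 4 h was 4012, 3857 and 3668 with LPS and DMF, above 3441, 3181 and 2980 with LPS alone, and the log2 difference of 0.26 missed the threshold (adjusted p = 0.0888). Asl, Arg1 and Odc1 differed at 4 h by 0.09, 0.08 and -0.09, and Ass1, Asl and Odc1 at 24 h by 0.01, -0.08 and 0.04, none of which passed.

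With MMF, none of the 6 members tested passed at either time by limma, edgeR or DESeq2, nor was any under an unadjusted p of 0.05. MMF called 0.122% of all genes at 4 h. At 24 h it called 0% by limma, with 440 genes under an unadjusted p of 0.05, 0 called by edgeR, 17 by DESeq2 and 206 with the replicate number as a block. Nos2 with LPS and MMF differed from LPS alone by 0.11 at 4 h (95% interval -0.98 to 1.199) and -0.21 at 24 h (-0.80 to 0.38). For Gch1, Ass1, Asl and Odc1 the intervals lay within -0.51 and 0.29 at both times. The MMF effects at 24 h and 4 h differed in 0 of 7 members and in 0% of all genes by limma, edgeR and DESeq2, with 385 genes under an unadjusted p of 0.05 by limma.

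CBD called none of the 6 members tested at 4 h by any of the 3 tools, with 0.00875% of all genes called, and 3 of 5 at 24 h, where 48.7% of all genes were called. At 4 h the Nos2 difference was 0.34 (95% interval -0.90 to 1.58). At 24 h Nos2 was lower with LPS and CBD by 1.25 on the log2 scale (SE 0.36, adjusted p = 0.0164), or 41.9% of the level with LPS alone. The same-numbered differences were -0.81, -0.91 and -2.06. Without CBD library 3, the lowest, the difference was -0.80 (adjusted p = 0.0303). DESeq2 gave an adjusted p of 0.0532, and 1 fit over all 36 libraries gave 0.193.

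The enzymes that rebuild arginine were higher with CBD at 24 h. Ass1 was 3937, 4658 and 4130 with LPS and CBD against 2840, 3014 and 3362 with LPS alone, a log2 difference of 0.47 (SE 0.09, adjusted p = 0.0026). Asl was 942, 966 and 875 against 742, 769 and 784, a difference of 0.28 (SE 0.08, adjusted p = 0.0155). Neither gene overlapped between the groups, in a comparison where 48.7% of all genes were called. The share of all genes without overlap is not given here. The Asl call was lost without CBD library 1 (adjusted p = 0.0546) or 2 (0.0521). For Ass1 the CBD effect was larger at 24 h than at 4 h by 0.45 (SE 0.13, adjusted p = 0.0211), which was lost without LPS library 1 at either time or CBD library 2 or 3 at 4 h (0.0514 to 0.0555), and 32% of all genes were called in that test. For Nos2 the same difference of effects was -1.59 (adjusted p = 0.116), 0.000123 with the replicate number as a block and 0.0151 without LPS library 2 at 4 h.

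From 4 h to 24 h Nos2 rose in 5 of 6 treatments, by 3.32 with DMSO, 4.82 with EtOH, 1.85 with LPS, 5.20 with LPS and DMF and 1.54 with LPS and MMF. Without the 4 h library numbered 2 or 5 these were 4.21 with DMSO, 5.94 with EtOH, 2.46 with LPS and 6.21 with LPS and DMF, without DMSO library 4 at 4 h 2.43 and without DMF library 1 at 4 h 4.60. With LPS and CBD the change was 0.25 (95% interval -0.74 to 1.25, adjusted p = 0.637). Between these times 4 of the 6 members tested passed with EtOH (58.6% of all genes) and 6 of 6 with LPS and DMF (58.8%). With the other treatments 5 of 6 passed, beside 51.6% of all genes with DMSO, 48.9% with LPS, 49.5% with LPS and MMF and 63.2% with LPS and CBD. Ass1 rose with LPS and CBD by 0.38 (adjusted p = 0.00545) and fell with LPS and DMF by 0.32 (adjusted p = 0.0209). Without DMF library 1 at 24 h the latter value was -0.21 and not called (adjusted p = 0.0774).

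**Figure D3:**
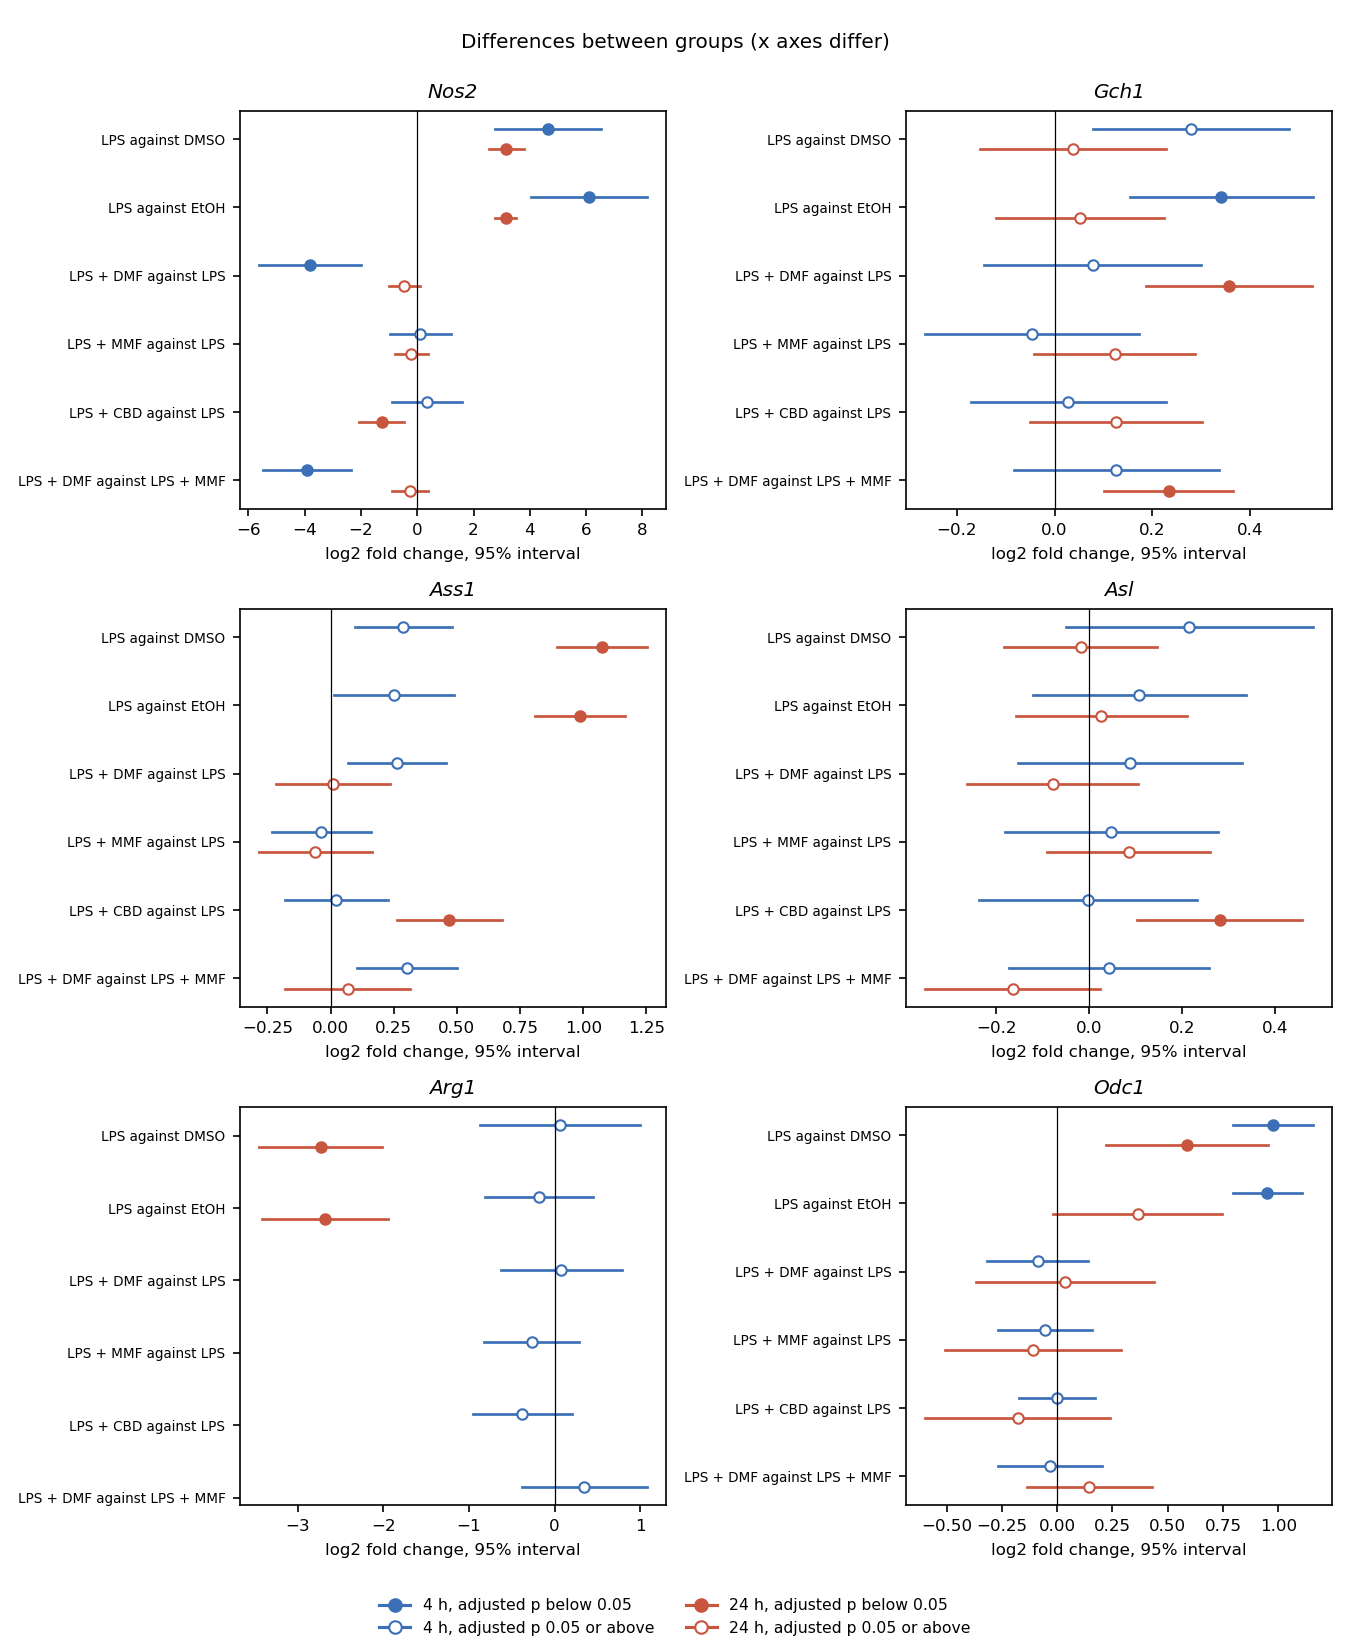
Log2 fold changes with 95% intervals for the 6 genes with enough reads, for LPS over the 2 vehicles, for the drugs given with LPS over LPS alone, and for DMF over MMF, at 4 h (blue) and 24 h (red), with filled points for an adjusted p under 0.05. Nos2 with DMF stands at -3.81 at 4 h and -0.46 at 24 h, and with CBD at 0.34 and -1.25. Arg1 was not tested between the treatments with LPS at 24 h.

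DMF and MMF differ by 1 methyl ester group and were given at the same dose, so they were compared directly, at 2 times. Of the members tested, 1 of 6 passed at 4 h (8.34% of all genes) and 1 of 5 at 24 h (21.5% of all genes). Nos2 at 4 h was lower with DMF than with MMF by 3.91 on the log2 scale (SE 0.70, 95% interval -5.47 to -2.36, adjusted p = 0.00899), and no library overlapped. Without MMF library 3 the adjusted p was 0.0525, and the value was -3.32 without DMF library 1 and -4.94 without DMF library 2. At 24 h the difference was -0.25 (-0.90 to 0.40, adjusted p = 0.569), lower with DMF in 3 of 3 same-numbered pairs (-0.40, -0.33 and -0.02), and 0.00598 with the replicate number as a block. Gch1 at 24 h was 2943, 2938 and 3144 with DMF against 2587, 2521 and 2553 with MMF, a difference of 0.23 (SE 0.06, adjusted p = 0.0217), which was lost without DMF library 2 or 3 or MMF library 1 or 3 (0.0517 to 0.106).

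The other genes did not pass the test between DMF and MMF. At 4 h the differences were 0.30 for Ass1 (95% interval 0.10 to 0.50, adjusted p = 0.066, or 0.0384 by DESeq2 and in 1 fit over all 36 libraries), 0.13 for Gch1 (-0.08 to 0.34), 0.04 for Asl (-0.17 to 0.26) and -0.03 for Odc1 (-0.27 to 0.20). Arg1 differed by 0.35, with a wide interval from -0.38 to 1.08. At 24 h they were 0.07 for Ass1 (-0.18 to 0.32), -0.16 for Asl (-0.35 to 0.02) and 0.15 for Odc1 (-0.14 to 0.43, adjusted p = 0.44, and 0.0438 with the block). CBD was given at another dose and is only set beside them. Its Nos2 means were 2705 ± 1604 at 4 h and 3238 ± 1746 at 24 h (SD, n = 3), those of DMF 232 ± 285 and 5302 ± 2012, and those of MMF 2228 ± 1047 and 6357 ± 2704.

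Each drug with LPS was also set against its own vehicle without LPS, which changes the drug, LPS and the replicate numbers together. With DMF, 3 of 6 members passed at 4 h (23.5% of all genes), namely Gch1, Ass1 and Odc1, and 5 of 6 at 24 h (40.2%), all but Asl. With MMF, 2 of 6 passed at 4 h (8.22%), Nos2 and Odc1, and 4 of 6 at 24 h (22.4%), Nos2, Ass1, Odc1 and Arg1. With CBD, 3 of 6 passed at 4 h (13.6%), Nos2, Gch1 and Odc1, and 4 of 6 at 24 h (50.5%), Nos2, Ass1, Asl and Arg1. Arg1 was the 1 gene lower with LPS and a drug, at 24 h by 2.43 with DMF, 3.20 with MMF and 3.21 with CBD. With MMF and CBD it could be tested only through the vehicle libraries. Odc1 with CBD at 24 h differed from EtOH by 0.18 (adjusted p = 0.313).

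DMSO and EtOH differed in none of the 6 members tested at 4 h, where 0% of all genes were called by limma, 1051 had an unadjusted p under 0.05, 0 were called by edgeR and 87 by DESeq2. Nos2 at 4 h was higher with DMSO by 1.46 (95% interval -0.91 to 3.82, adjusted p = 0.721), and with the replicate number as a block it was called (adjusted p = 0.0103), as were 876 genes. At 24 h none of the 6 members was called by limma, edgeR or DESeq2, beside 0.00854% of all genes, and Nos2 differed by -0.03.

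Of 62 other genes of the pathway in 8 lists, 58 were listed and 46 to 48 could be tested in the comparisons with LPS alone. LPS against DMSO called 6 higher and 2 lower of 46 at 4 h, and 8 higher and 5 lower of 48 at 24 h, beside 14.1% and 22.7% of all genes. Against EtOH it called 6 higher and 1 lower of 46, and 5 higher and 5 lower of 48, beside 10.2% and 20.5%. Transcription factors known to bind the Nos2 gene accounted for 4 of the 6 higher genes at 4 h against either vehicle, out of 7 tested, with a median log2 difference of 0.66 against DMSO beside -0.0005 over all genes. Nfkb1, an NF-kB subunit, rose against DMSO from 1588 to 3994 normalised counts at 4 h (log2 1.32, SE 0.11, adjusted p = 0.000183) and from 1436 to 4176 at 24 h (1.55, SE 0.08, adjusted p = 8.22e-07).

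Against EtOH the values for Nfkb1 were 1.26 and 1.61. Cebpb, a leucine zipper factor of myeloid cells, rose by 0.88 against DMSO at 4 h (adjusted p = 0.00184), and Hif1a, the oxygen-regulated factor, by 0.69 against EtOH (adjusted p = 0.000451). Slc7a7, a light chain of a cationic amino acid exchanger, rose at 4 h by 0.79 against DMSO (adjusted p = 0.00463) and 0.86 against EtOH (adjusted p = 0.0082). At 24 h Il4ra, the interleukin-4 receptor chain, was higher by 0.66 and 0.76, and Smox, spermine oxidase, lower by 0.65 and 0.75, against DMSO and EtOH. On the alternative activation list, to which Il4ra belongs, 3 of the 4 genes tested were lower at 24 h against each vehicle and 1 was higher.

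DMF called 5 of these genes higher and 3 lower of 46 at 4 h, and 7 higher and 7 lower of 47 at 24 h, beside 11.1% and 25.1% of all genes. The 3 lower genes at 4 h were among the 7 factors that bind Nos2, whose median log2 difference was -0.41 beside 0.01 over all genes. Irf8 fell by 0.91 (adjusted p = 0.00168) and Irf1, an interferon regulatory factor, by 0.83 (adjusted p = 0.0327). Nfkb1 (-0.41), Cebpb (0.23) and Hif1a (-0.03) did not pass, and a link of these factors to the fall of Nos2 was not tested. At 24 h Irf1 differed by 0.31, which did not pass, and Irf8 was lower by 0.27 and called. Slc3a2, the heavy chain of several amino acid exchangers, was higher with DMF by 1.09 at 4 h (adjusted p = 7.56e-05) and 0.94 at 24 h (adjusted p = 9.17e-05). At 24 h the lectin Clec10a fell by 0.70 (adjusted p = 0.000257), and Pycr1, of proline synthesis, rose by 0.68 (adjusted p = 0.0014).

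CBD at 24 h called 11 of the 48 genes tested higher and 13 lower, beside 48.7% of all genes, and at 4 h 0 of 46, beside 0.00875%. Nos1, the neuronal NO synthase, rose from 7.91 ± 4.71 with LPS alone to 74.3 ± 12.3 with LPS and CBD (SD, n = 3), a log2 difference of 3.20 (SE 0.37, adjusted p = 0.000131). It reached the minimum for this test only through the libraries with LPS and CBD, and was too low to test for DMF or MMF against LPS. Gchfr, the feedback regulator of the Gch1 enzyme, fell from 117 ± 43.1 to 25.7 ± 9.95, by 2.14 (SE 0.32, adjusted p = 0.000506). Slc3a2 was higher by 2.17 (adjusted p = 7.67e-05) and Slc7a3, another carrier of cationic amino acids, by 1.47 (adjusted p = 0.00194). These 4 genes were named for their large change among the called, so their lack of overlap between the groups is no separate evidence. None of the groups at 4 h or of the other treatments at 24 h had a mean of Nos1 above 23.0. MMF called 0 of these genes in either direction at either time.

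**Figure D4:**
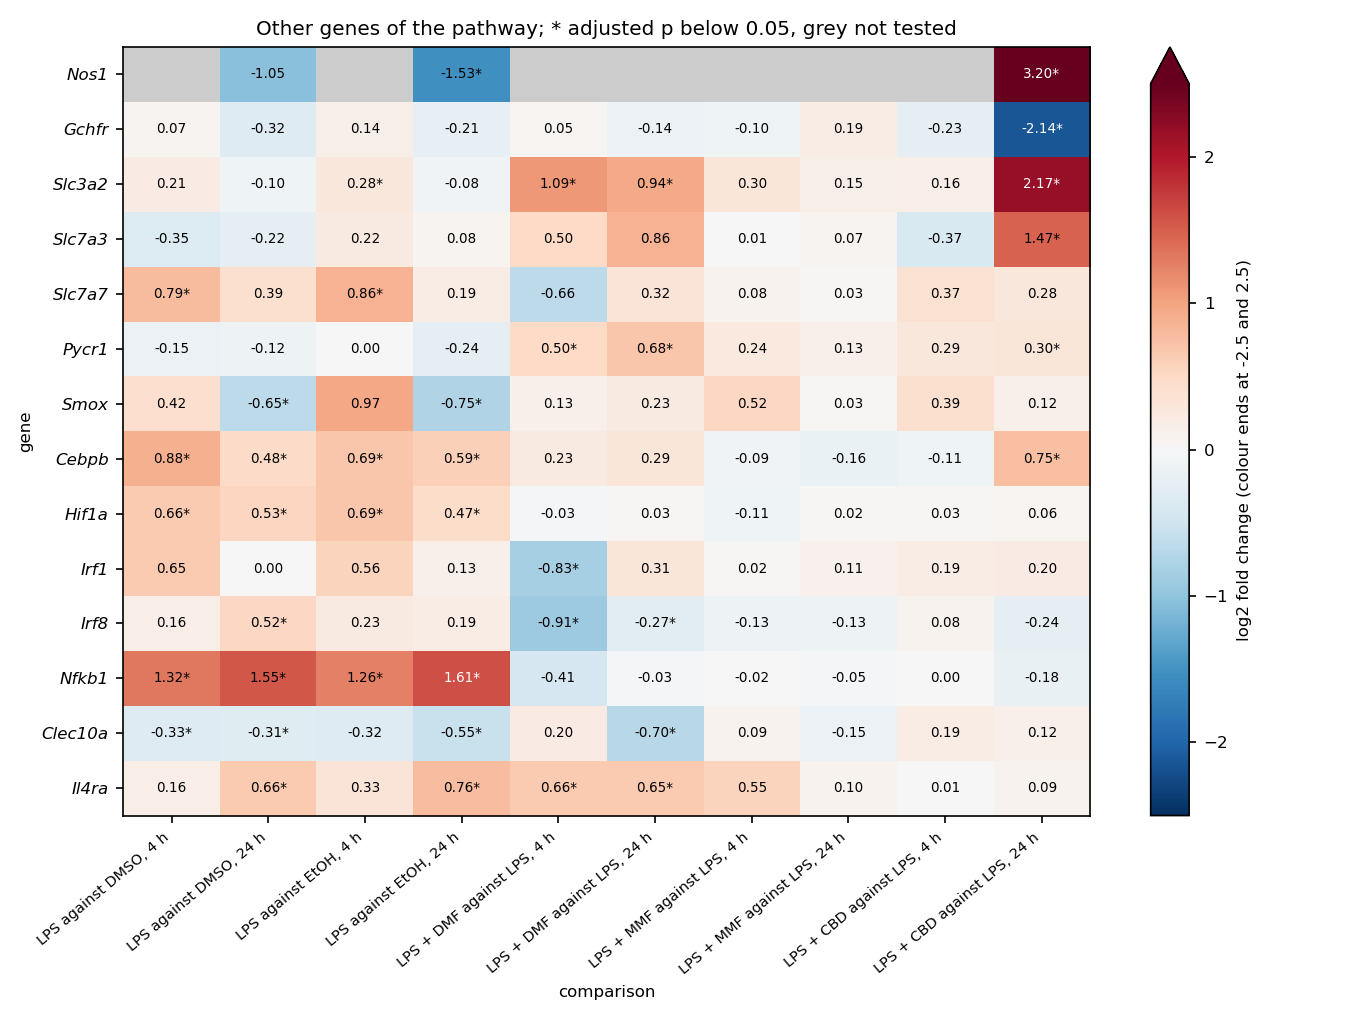
Log2 fold changes of 14 other genes of the pathway (rows) for LPS over the 2 vehicles and for the drugs given with LPS over LPS alone (columns), with an asterisk for an adjusted p under 0.05 and grey where not tested. Irf1 and Irf8 are lower with DMF at 4 h (-0.83 and -0.91), and Nos1 and Gchfr stand at 3.20 and -2.14 with CBD at 24 h.

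Over the 12 group means, the genes among 10558 whose log2 levels correlated most with Nos2 were Hcar2 (Pearson r = 0.995), Ppp2r3a (0.983) and Lcp2 (0.980). They were Arid3b for Gch1 (0.984), Llph for Ass1 (0.960), Prmt2 for Asl (0.980), Safb for Arg1 (0.959) and Fbxo33 for Odc1 (0.969). The points share libraries and treatments, and the values are descriptions. Nos2 and Gch1 had r = 0.75.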

How the data were processed

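RNA-seq of poly(A)+ RNA from BV-2 cells was analysed in 36 libraries, 12 groups of 3 taken from the sample titles. Per the labels and the study's methods, the authors removed adapters (cutadapt 4.4), filtered on quality (Trimmomatic 0.39), mapped to GRCm39 (HISAT2 2.2.1), counted reads per gene (HTSeq 2.0.3) and normalised the counts (DESeq2 1.40.2 in R 4.3.1). They deposited 30 tables, 1 for each pair of groups, with the signal of each gene in 6 libraries, which is its read count divided by the size factor of that library. The deposited tables also hold the mean signal and, from the authors' DESeq2 test, log2 fold changes, their standard errors, a score (the Wald statistic), p-values and adjusted p-values, none of which were used. The tables listed 17161 to 17778 genes and leave out genes with no read in their 6 libraries.

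Whole reads were recovered from 155 of 180 library columns, with 100% of 2695078 values within 0.01 of a whole number. Of 2020699 values found in several tables, 0 differed. Size factors ran from 0.750 to 1.53 in the deposited tables and from 0.830 to 1.62 jointly over the 36 libraries, and replicates differed by more than counting error (chi-square per degree of freedom 4.83 to 31.0 over 36 pairs).

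Pairs of groups were compared with limma 3.58.1 in R 4.3.3 (trend on) on log2(deposited value + 1), for genes at 10 or more in at least 3 of the 6 libraries, with Benjamini-Hochberg adjustment over all genes tested and calls at 0.05. Intervals are 95% and two-sided. Differences between effects at 24 h and 4 h were fitted on 12 libraries from recovered reads with joint factors. Alternatives were edgeR 4.0.16 and DESeq2 1.42.0 on recovered reads, a pseudocount of 5, no filter, 1 fit over 36 libraries, the replicate number as a block and leaving out each library. Scripts were tested on simulated data.

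Every main call was made without pairing, and the replicate number enters only as the block. The design text names 3 independent experiments. Libraries with the same number were taken as paired where each number's correlation of deviations from the group means was over 0.1. This held for DMF (0.169 to 0.463 at 4 h, 0.225 to 0.514 at 24 h) and CBD (0.242 to 0.657 and 0.126 to 0.521) against LPS, MMF against LPS (0.332 to 0.680) and DMF against MMF (0.202 to 0.575) at 24 h, DMSO against EtOH (0.305 to 0.746 and 0.184 to 0.471), and 24 h against 4 h with LPS and with LPS and MMF (0.141 at the lowest). Per-kb levels use exon lengths of GENCODE on GRCm39. The text names all 8 members and, from the lists, up to 4 called genes per comparison with the largest change and a mean of at least 50, and for each member with a mean of at least 50 in some group the genes most like it. Not every list gene that meets this rule is reported here; counts and medians still cover all of them. Members and lists were proposed with earlier results of these data known, although the rule for the members uses no measured value.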

Additional observations from a re-analysis of the deposited data

Results flagged for a closer look

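In 7 cases the effect of a treatment on a gene differed between 4 h and 24 h by the test of that difference, given here as the log2 effect at 24 h minus that at 4 h, from limma over 12 libraries. For LPS against DMSO the difference was 0.77 for Ass1 (adjusted p = 0.00237) and -2.82 for Arg1 (adjusted p = 0.00609), where 9.46% of all genes were called. For LPS against EtOH it was 0.73 for Ass1 (adjusted p = 0.00559) and -2.49 for Arg1 (adjusted p = 0.00294), where 9% of all genes were called. Both use the same LPS libraries. The effect of DMF on Nos2 moved by 3.35 (adjusted p = 0.025), from -3.81 at 4 h to -0.46 at 24 h. Nos2 was 1 of 6 members tested, where 16.3% of all genes were called. Its call was lost by DESeq2 (adjusted p = 0.0987) and without some single libraries, as given above. The effect of CBD moved by -2.45 for Slc7a2 (adjusted p = 0.0417), on 11 to 31 reads per group, and by 0.45 for Ass1 (adjusted p = 0.0211). These were 2 of 7 members tested, where 32% of all genes were called. Slc7a2 could be tested only through libraries outside the group with LPS and CBD at 24 h, and its call was lost by DESeq2 (adjusted p = 0.062). Both calls were lost without some single libraries, as given above. For MMF 0 of the 7 members tested were called in this test, 0 by edgeR and DESeq2 as well, with 385 genes in all under an unadjusted p of 0.05.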

How the results depend on the processing

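No value called in the main test, limma without pairing, changed sign under any alternative. Of 185 member values tested, 113 were called in a fit over all libraries, had an unadjusted p below 0.05, or were for Nos2 or for DMF against MMF. Of these, 9 changed sign, none of them called in the main test. Among the 9, Nos2 for DMF against MMF at 24 h was called by limma with the replicate number as a block (adjusted p = 0.00598). Of the other 72, none of them called in such a fit, 36 changed sign. Nos2 with MMF against LPS at 4 h was -0.051 by edgeR and -0.060 by DESeq2, and -0.31 to 0.72 when single libraries were left out. Nos2 with DMSO against EtOH at 24 h was 0.050 by edgeR and 0.052 by DESeq2, and -0.35 to 0.30 without single libraries. Without single libraries Nos2 ran from -0.53 to 0.013 for MMF against LPS at 24 h, -0.11 to 0.96 for CBD against LPS at 4 h, -0.54 to 0.070 for DMF against MMF at 24 h and -0.18 to 1.73 for DMF with LPS against DMSO at 4 h. It ran from -0.14 to 0.70 for LPS with CBD between the times and from -0.92 to 0.11 for the MMF effect at 24 h minus that at 4 h, and Odc1 for DMF against MMF at 4 h ran from -0.12 to 0.031. The cause was not tested. Over both times the count of members called ranged from 1 to 3 for DMF against LPS and from 1 to 2 for DMF against MMF when single libraries were left out.

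A block for the replicate number raised the members called over both times from 2 to 5 for DMF against MMF and from 0 to 1 for DMSO against EtOH. Where the numbers pair the libraries, the block changed no other member call than those given above. Where they do not (lowest correlation 0.0079 to 0.0809), it added Ass1 for DMF against MMF at 4 h (adjusted p = 0.0338) and Arg1 with DMSO between the times (0.017). The block moved the count over all genes from 2926 to 4566 for DMF against LPS at 24 h, from 14 to 179 for MMF at 4 h, from 1 to 4 for CBD at 4 h, from 949 to 1740 and from 2508 to 4639 for DMF against MMF at 4 h and 24 h, and from 1 to 20 for DMSO against EtOH at 24 h. It called 5 genes in place of 0 for the MMF effects between the times. LPS or a drug was not compared with a vehicle in pairs, because the titles number the LPS treatments 1 to 3 and the vehicles 4 to 6. If the numbers mark experiments, treatment and experiment cannot be told apart there.

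In 1 fit over 36 libraries the count over all genes at 4 h was 2435 in place of 1609 for LPS against DMSO, 2580 in place of 1257 for DMF against LPS, 2422 in place of 949 for DMF against MMF, 4297 in place of 2690 for DMF with LPS against DMSO and 55 in place of 14 for MMF against LPS, for which DESeq2 gave 53. That fit lost the rise of Nos2 between the times with LPS (adjusted p = 0.0508) and with LPS and MMF (0.106), and called Asl against DMSO at 4 h for DMF (0.00436) and MMF (0.0407) and Gch1 for MMF (0.0484), besides the calls given above. Calls lost without 1 library and not given above were Gch1 for DMF with LPS against DMSO at 4 h without DMSO library 5 or DMF library 3 (0.0506 at most), Odc1 for MMF with LPS against DMSO at 24 h without MMF library 3 (0.0593), and, between the times with LPS and DMF, Ass1 without DMF library 1 at 24 h (-0.21, 0.0774) and Asl without DMF library 3 at either time (0.0826 at most). Odc1 with DMSO between the times was lost by edgeR (0.0511), with no filter (0.0578), in the fit over 36 libraries (0.179) and without DMSO library 4 or 6 at 4 h or 5 at 24 h (0.194 at most). Slc7a2 and Arg2, at 3 to 31 reads per group, were without a test in most comparisons.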
